A study of Homo sapiens with 12 samples.

Results

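The genes described are 10 parts of the Notch pathway, found by their symbols among the 20375 genes listed for each RNA sequencing library. They are the receptors NOTCH1, NOTCH2 and NOTCH3, the ligands JAG1, JAG2 and DLL1, and the target genes HES1, HES4, HEY1 and NRARP. All 10 were listed in every library, and all 10 passed the filter on low values. Their mean levels ran from 5.93 to 63.7 TPM in PRP, from 5.35 to 59.7 TPM in plasma and from 7.26 to 53.4 TPM in control, where TPM is the share of a library's transcripts that belongs to a gene, scaled to the same total in every library. In PRP-treated and plasma-treated cells JAG1 and HEY1 were lower than in control and HES1 was higher. The receptor genes did not pass the main test on TPM. Of 22 alternative fits, 5 called NOTCH1 higher in PRP and 4 in plasma, and for NOTCH2 6 did in PRP and 3 in plasma. In 12 of the 22 fits 1 library was left out, and those 12 gave only 1 of these calls, for NOTCH2 in PRP. NOTCH3 was called lower in plasma under 1 of the 22 fits, and HEY1 lost its call in PRP under 7.

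Notch receptors are membrane proteins that bind Jagged or Delta-like ligands on a neighbouring cell. Binding leads to cleavage of the receptor by ADAM10 and then by gamma-secretase, and the freed intracellular part enters the nucleus, joins the DNA-binding protein RBPJ and a Mastermind-like co-activator, and switches on genes such as HES1 and HEY1. In stratified epithelia the pathway is known for its part in the exit of basal cells from the cell cycle and in their differentiation, and receptor mutations are frequent in squamous carcinomas.

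The cells were PE/CA-PJ41, a human oral squamous cell carcinoma line. They received 10% platelet-rich plasma (PRP, plasma in which platelets have been concentrated) or 10% human plasma for 48 h, or were left untreated (control), with n = 4 libraries in each group. Control has no culture time in the labels. Separate cultures are not stated for the replicates either, so each p-value reflects the spread among libraries alone, and that spread may be technical.

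Total estimated reads ranged from 36943548 to 41976136 in PRP, from 36258955 to 41946780 in plasma and from 40166503 to 41531218 in control. Of the 8 squamous epithelium markers, all were detected in every group, and their summed level was 14165 to 15739 TPM in PRP, 14138 to 15454 TPM in plasma and 11510 to 12935 TPM in control. The 5 platelet markers summed to 0.309 to 0.424 TPM in PRP, 0.353 to 0.634 TPM in plasma and 0.438 to 0.693 TPM in control, and PF4, a defining platelet transcript, was listed at 0 in every library. The 5 leukocyte markers summed to 5.84 to 7.21 TPM in PRP, 5.36 to 6.72 TPM in plasma and 2.93 to 4.02 TPM in control, with CD3E, a defining T cell marker, at most at 0.0653 TPM. The 4 endothelial markers summed to 29.5 to 35.4 TPM in PRP, 30.5 to 38.1 TPM in plasma and 12.4 to 24.1 TPM in control, while PECAM1, a defining marker of that cell type, reached at most 0.0501 TPM. The 4 fibroblast markers summed to 12.1 to 14.1 TPM in PRP, 13.5 to 16.2 TPM in plasma and 15.5 to 20.1 TPM in control, with COL3A1 at most at 0.0783 TPM. The 4 erythroid markers summed to 1.05 to 2.83 TPM in PRP, 1.17 to 1.92 TPM in plasma and 1.38 to 2.68 TPM in control. Markers moved in both directions. The endothelial marker CDH5 rose, at 24.6 TPM in PRP, 25.4 TPM in plasma and 9.44 TPM in control. VWF, of the same list, stood at 7.25, 7.95 and 7.28 TPM in these groups. The leukocyte marker CD14 rose, at 5.49, 4.89 and 1.79 TPM. In the same list PTPRC went the other way, at 0.0491, 0.0935 and 0.621 TPM, with at most 35 reads in any library. LYZ differed little, at 1.08, 1.12 and 1.04 TPM. The fibroblast marker LUM fell, at 3.42, 3.87 and 8.40 TPM, while COL1A1 stood at 9.46, 11.1 and 8.88 TPM. Of the squamous markers, KRT5 (7677, 7645 and 4784 TPM) and KRT14 (3273, 3204 and 2465 TPM) rose after both treatments, KRT17 (1647, 1793 and 2696 TPM) fell after both, and SFN (812, 717 and 877 TPM) fell in plasma. The part of other cell types in the Notch results was not tested.

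The promoters of 3 target genes are shown because RBPJ, the factor that carries the Notch signal to DNA, is known to bind the letters GTGGGAA. Each sequence holds the 120 bases before the start of the gene in RefSeq (GRCh38.p14), read along the strand of the gene. Capitals mark GTGGGAA.
HES1: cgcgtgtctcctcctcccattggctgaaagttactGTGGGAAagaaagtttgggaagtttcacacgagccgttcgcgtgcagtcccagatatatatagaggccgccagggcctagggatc
HES4: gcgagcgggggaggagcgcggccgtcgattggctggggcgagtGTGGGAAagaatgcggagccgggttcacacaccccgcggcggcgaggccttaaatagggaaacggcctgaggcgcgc
NRARP: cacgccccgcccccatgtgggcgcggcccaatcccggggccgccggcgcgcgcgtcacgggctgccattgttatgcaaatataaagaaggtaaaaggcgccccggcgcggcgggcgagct
The HES1 stretch lies at chr3:194136028-194136147 on the plus strand. The HES4 stretch lies at chr1:1000098-1000217 and the NRARP stretch at chr9:137302272-137302391, both on the minus strand. In GENCODE v29 (GRCh38) HES4 starts at 1000172 and HES1 at 194136145, inside these stretches. By that annotation only the last few bases of the HES1 stretch lie within the gene, but most of the HES4 stretch does. The HES4 copy of GTGGGAA then spans the start of that gene. Distances below are counted from the RefSeq start.

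A promoter window, 250 bases before to 50 bases after the start, was found in the RefSeq table for 8 of the 10 genes. The windows of DLL1 and HEY1 were not used here. With both strands searched, GTGGGAA occurred in the windows of 2 of the 8 genes, HES1 and HES4, and in 6.25% of all 35116 windows of the same length. In HES1 its first base lay 85 bases before the start, and in HES4 it lay 77 bases before it, in both on the strand of the gene. Around it both genes share an unbroken run of 12 letters, tgtgggaaagaa. The core TGGGAA, which is part of that motif, was also found in the windows of these 2 genes and in 24.0% of all windows, and HES1 held another copy 70 bases before its start. The letters CACNAG, a motif that HES proteins are known to bind, occurred in 5 of the 8 windows and in 38.0% of all windows, with 4 matches in HES1. Of the 2 genes with GTGGGAA, HES1 passed the test against control and HES4 did not, and the difference between them was not tested.

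The order of the 10 genes by level was similar in the 3 groups. HES1 had the highest mean, followed by NOTCH3, and HEY1 the lowest, below NOTCH1 and NOTCH2. In PRP and plasma JAG2 came next after NOTCH3 and its libraries lay above all those of JAG1, whereas in control JAG1 (44.4 TPM) and JAG2 (41.0 TPM) overlapped. NOTCH3 and JAG2 overlapped in PRP and in plasma, as did NOTCH1 and NOTCH2 in every group. DLL1 and HES4 were close to each other in every group, with overlapping libraries. HES1 lay above NOTCH3 in all PRP and plasma libraries, and overlapped with it in control.

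**Figure D1:**
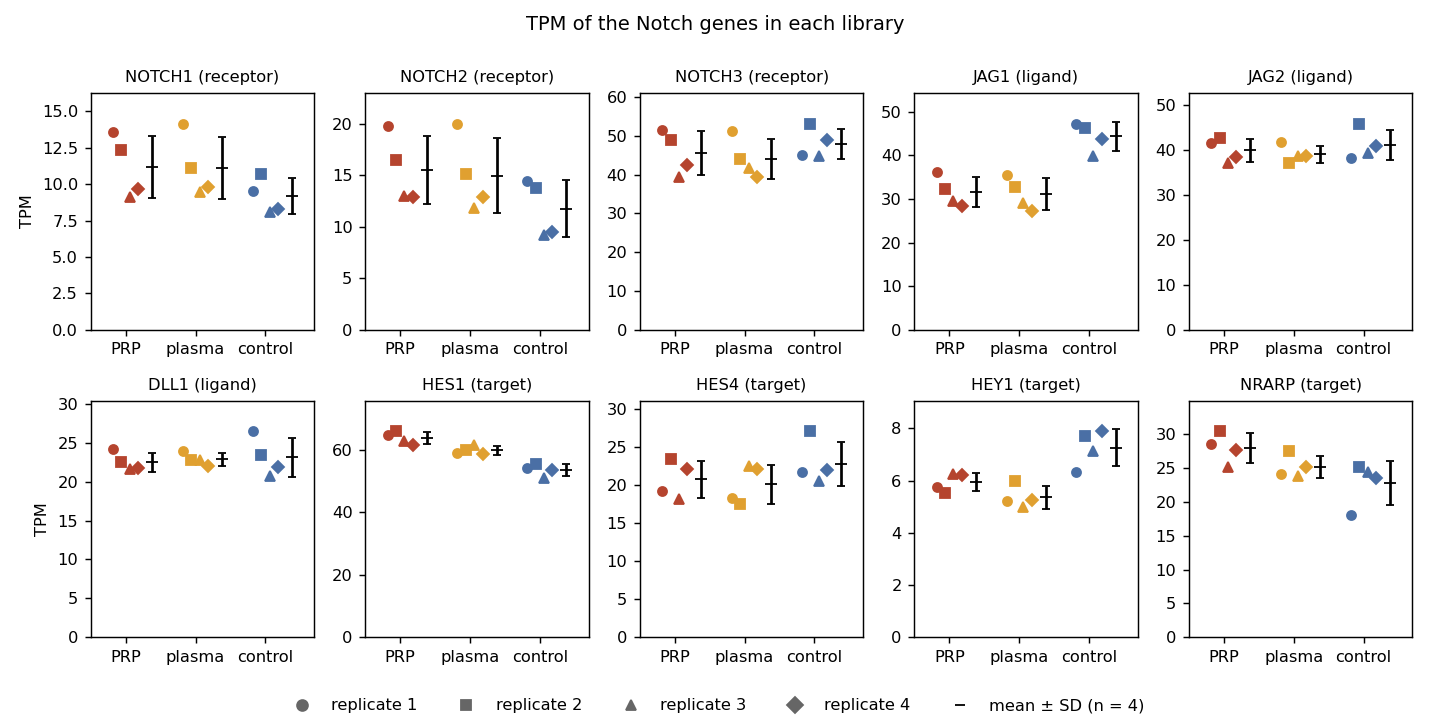
TPM of the 10 Notch genes (y axis, linear from 0) in the 4 libraries of each group (x axis), with replicate numbers as symbols and mean ± SD as black bars. JAG1 and HEY1 libraries of PRP and plasma lie below all control libraries, HES1 libraries lie above them, and the NOTCH1 and NOTCH2 groups overlap.

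Across all 12517 genes that passed the filter (at least 1 TPM in at least 4 libraries), limma with Benjamini-Hochberg adjustment at 0.05 called 53.1% between PRP and control and 49.3% between plasma and control. Of the 10 Notch genes, 4 were called in PRP and 3 in plasma, both shares under the background. Calls of higher level made up 21.7% of tested genes in PRP and 20.3% in plasma, and calls of lower level 31.5% in PRP and 29% in plasma. In PRP 2 Notch genes were higher and 2 lower, and in plasma 1 was higher and 2 were lower. Without PRP replicate 2, 2 Notch genes were called in PRP, and on estimated reads 5 were called in plasma. The median log2 difference from control over the 10 genes was -0.04 in PRP and -0.04 in plasma, against -0.06 and -0.05 over all tested genes. Libraries did not overlap with control for 3 of the 10 genes in PRP and 3 in plasma, against a background of 46.8% of tested genes in PRP and 43.9% in plasma. Both comparisons share the same 4 control libraries, so their values are given side by side and not as support for each other. With each library centred on its median gene, the genes called over the whole table split into 3534 higher and 3016 lower in PRP, against 2711 and 3941 without centring. In plasma the split was 3309 higher and 2803 lower with centring, against 2544 and 3629 without.

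**Figure D2:**
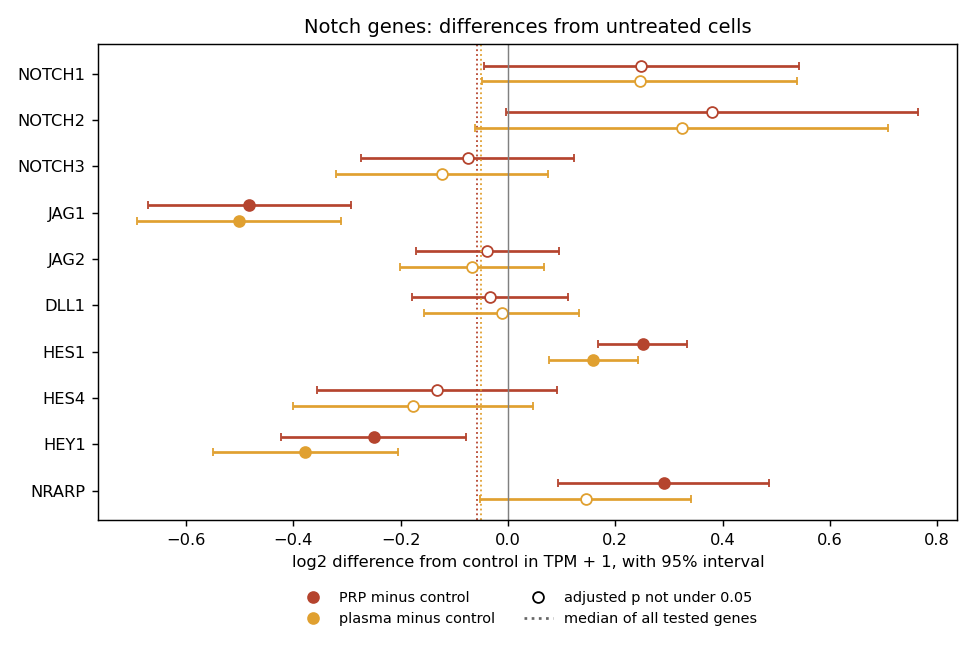
Log2 difference in TPM + 1 (x axis) from control for each Notch gene (y axis), PRP above plasma, with 95% intervals from limma. Filled points passed an adjusted p of 0.05, and dotted lines mark the median of all tested genes, at -0.06 for PRP and -0.05 for plasma.

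The 3 receptor genes differed in level and did not pass the main test on TPM in either comparison with control. NOTCH3 (chr19:15159038-15200981, minus strand, GENCODE v29 on GRCh38) was the most abundant of them. It ranged from 39.4 to 51.6 TPM in PRP, from 39.3 to 51.3 TPM in plasma and from 44.7 to 53.1 TPM in control. The groups overlapped, with log2 differences from control of -0.07 in PRP (adjusted p = 0.516) and -0.12 in plasma (adjusted p = 0.289). In plasma NOTCH3 passed the test when the 3 libraries numbered 1 were left out, at -0.22 with an adjusted p of 0.0489.

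NOTCH1 (chr9:136494433-136545786, minus strand) is the receptor most studied in squamous epithelium. Its level was 13.6, 12.3, 9.12 and 9.64 TPM in the PRP libraries, 14.1, 11.1, 9.45 and 9.83 TPM in plasma and 9.56, 10.7, 8.11 and 8.32 TPM in control. The PRP and plasma libraries numbered 1 and 2 were above every control library, and those numbered 3 and 4 lay within the control range. Each treated library was above the control library of the same number, but the labels do not state what equal numbers share. The log2 difference from control was 0.25 in PRP (95% interval -0.04 to 0.54, adjusted p = 0.141) and 0.25 in plasma (95% interval -0.05 to 0.54, adjusted p = 0.152). Neither passed the test on TPM, but both passed it on estimated reads, at 0.34 in PRP (adjusted p = 0.0226) and 0.33 in plasma (adjusted p = 0.0305), with libraries scaled by the median of gene ratios. They also passed on TPM centred on the median gene, at 0.31 in PRP (adjusted p = 0.0345) and 0.30 in plasma (adjusted p = 0.0427). In the other direction, the TPM difference was 0.16 in PRP without PRP replicate 1 (adjusted p = 0.361) and 0.13 in plasma without plasma replicate 1 (adjusted p = 0.415).

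NOTCH2 (chr1:119911553-120069626, minus strand) followed the same library pattern. It had 19.8, 16.5, 13.0 and 12.9 TPM in PRP, 20.015, 15.1, 11.8 and 12.9 TPM in plasma and 14.5, 13.8, 9.23 and 9.48 TPM in control. Again the treated libraries numbered 3 and 4 lay within the control range, and those numbered 1 and 2 above it. Here too each treated library was above the control library of the same number. The log2 difference from control was 0.38 in PRP (95% interval -0.00338 to 0.77, adjusted p = 0.0878) and 0.32 in plasma (95% interval -0.06 to 0.71, adjusted p = 0.150). On estimated reads both passed the test, at 0.48 in PRP (adjusted p = 0.0223) and 0.43 in plasma (adjusted p = 0.0382). Dropping control replicate 1 gave 0.48 in PRP (adjusted p = 0.0445). The TPM difference was smaller when PRP replicate 1 was dropped, at 0.26 in PRP (adjusted p = 0.240), and when plasma replicate 1 was dropped, at 0.18 in plasma (adjusted p = 0.402). The human genome holds near-identical partial copies of NOTCH2, and 4 of them, NOTCH2NLA, NOTCH2NLB, NOTCH2NLC and NOTCH2NLR, are listed in the files. NOTCH2NLA averaged 24.9 ± 1.54 TPM in PRP, 23.9 ± 0.763 TPM in plasma and 17.3 ± 1.14 TPM in control (SD, n = 4 each). Its effective length, by which reads are turned into TPM, averaged 1472 bases in PRP, 1512 in plasma and 1816 in control. Its estimated reads ran from 897 to 1084 in PRP, 805 to 1069 in plasma and 764 to 920 in control. Reads could be split between these copies and NOTCH2 in the authors' counting, so the NOTCH2 values are uncertain.

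The library pattern of NOTCH1 and NOTCH2 was shared by long transcripts in general. Among 344 tested genes with an effective length (the length Salmon uses to turn reads into TPM) of at least 8000 bases, NOTCH1 and NOTCH2 included, the median deviation from the group mean in libraries 1 to 4 was 0.19, 0.04, -0.09 and -0.16 on the log2 scale in PRP. It was 0.19, 0.04, -0.14 and -0.10 in plasma and 0.12, 0.12, -0.14 and -0.11 in control. NOTCH2 deviated by 0.35, 0.10, -0.22 and -0.23 in PRP, by 0.42, 0.04, -0.29 and -0.18 in plasma and by 0.31, 0.24, -0.29 and -0.26 in control. The part of this library pattern in the receptor results was not tested. The same 344 genes had a median log2 difference from control of -0.16 in PRP and -0.14 in plasma, so the positive differences of NOTCH1 and NOTCH2 ran the other way from the median of long genes. For the 3540 tested genes under 1500 bases, HES1 and HES4 included, the median was 0.01 in PRP and 0.01 in plasma.

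**Figure D3:**
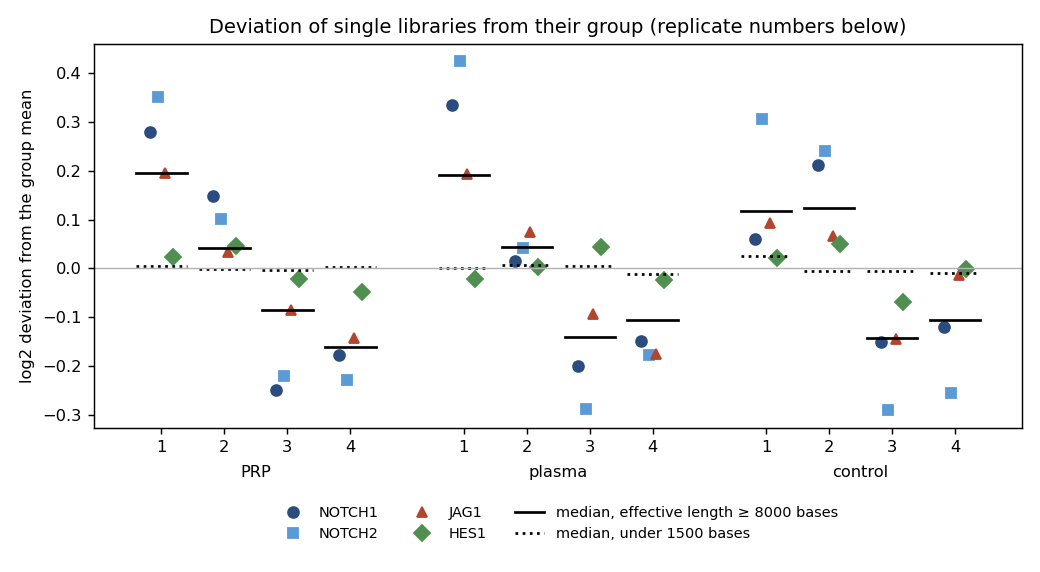
Log2 deviation of single libraries from the mean of their group (y axis) for NOTCH1, NOTCH2, JAG1 and HES1 (symbols), by group and replicate number (x axis), with the median of long genes (solid lines) and short genes (dotted lines). NOTCH1, NOTCH2 and JAG1 deviate with the long genes, at most 0.42 for NOTCH2 in plasma replicate 1, while HES1 stays between -0.07 and 0.05.

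The 3 receptors together summed to 72.3 ± 10.9 TPM in PRP, 70.2 ± 10.8 TPM in plasma and 68.9 ± 6.54 TPM in control (SD, n = 4 each). NOTCH3 made up 63.3% ± 1.97 of that sum in PRP, 63.1% ± 2.58 in plasma and 69.8% ± 3.64 in control. NOTCH2 made up 21.3% ± 1.43 in PRP, 21.1% ± 1.94 in plasma and 16.9% ± 3.06 in control. Its share overlapped between the groups, since control reached 20.9% in 1 library and PRP and plasma went down to 19.8% and 18.7%. NOTCH1 held 15.4% ± 0.637 in PRP, 15.8% ± 0.644 in plasma and 13.3% ± 0.650 in control, and its lowest shares in PRP and plasma, 14.8% and 15.0%, were above the highest in control, 13.8%.

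Of the ligands, JAG1 was lower after both treatments while JAG2 and DLL1 did not pass the test. JAG1 (chr20:10637684-10673999, minus strand) encodes Jagged 1, a ligand anchored in the membrane. Its level was 36.1, 32.2, 29.5 and 28.4 TPM in the PRP libraries, 35.6, 32.7, 28.99 and 27.3 TPM in plasma and 47.3, 46.4, 40.0 and 43.9 TPM in control. Every treated library lay below every control library, and PRP and plasma overlapped almost fully. JAG1 averaged 31.6 ± 3.45 TPM in PRP, 31.2 ± 3.71 TPM in plasma and 44.4 ± 3.27 TPM in control (SD, n = 4 each). By limma it fell by 0.48 on the log2 scale in PRP (SE 0.09, adjusted p = 0.000422) and by 0.50 in plasma (SE 0.09, adjusted p = 0.000361). These changes were larger in size than those of 85.5% of tested genes in PRP and 89.1% in plasma. The share of estimated reads fell by 0.44 on the log2 scale in PRP and by 0.47 in plasma, and the effective length differed from control by 0.02 in PRP and 0.01 in plasma. Tested genes of 5000 to 8000 bases, the class that holds JAG1, JAG2 and NOTCH3, had a median log2 difference from control of -0.11 in PRP and -0.10 in plasma, smaller than that of JAG1.

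JAG2 (chr14:105140981-105168824, minus strand), the other Jagged ligand, averaged 39.9 ± 2.63 TPM in PRP, 39.0 ± 1.88 TPM in plasma and 41.0 ± 3.35 TPM in control (SD, n = 4 each). The groups overlapped, from 37.0 to 42.6 TPM in PRP, 37.1 to 41.6 TPM in plasma and 38.1 to 45.8 TPM in control. Its log2 difference was -0.04 in PRP (95% interval -0.17 to 0.10, adjusted p = 0.627) and -0.07 in plasma (95% interval -0.20 to 0.07, adjusted p = 0.395). The sign in PRP turned to 0.03 with median centring.

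DLL1 (chr6:170282206-170306565, minus strand), a Delta-like ligand, averaged 22.5 ± 1.21 TPM in PRP, 22.9 ± 0.789 TPM in plasma and 23.1 ± 2.47 TPM in control (SD, n = 4 each). The control libraries, from 20.8 to 26.5 TPM, spanned all treated ones. The log2 difference was -0.03 in PRP (95% interval -0.18 to 0.11, adjusted p = 0.695) and -0.01 in plasma (95% interval -0.16 to 0.13, adjusted p = 0.898), and median centring turned both signs, to 0.03 and 0.04. DLL1 overlaps FAM120B on the opposite strand in GENCODE v29. With the strand setting of the counting not given in the sources used here, reads of the pair may not be told apart. NOTCH1 and JAG1 also overlap antisense genes there, and JAG2 and DLL1 other genes on their own strand. None of these is among the genes listed, and their part in the values was not tested.

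The 3 ligand genes summed to 93.9 ± 6.79 TPM in PRP, 93.0 ± 5.72 TPM in plasma and 109 ± 6.75 TPM in control. JAG1 made up 33.5% ± 1.44 of that sum in PRP, 33.4% ± 2.17 in plasma and 40.9% ± 1.06 in control, and its highest shares in PRP and plasma, 35.5% and 35.3%, were below the lowest in control, 39.9%. JAG2 made up 42.5% ± 1.39 in PRP, 42.0% ± 1.69 in plasma and 37.8% ± 2.54 in control. DLL1 made up 24.0% ± 0.683 in PRP, 24.6% ± 0.677 in plasma and 21.3% ± 1.58 in control.

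**Figure D4:**
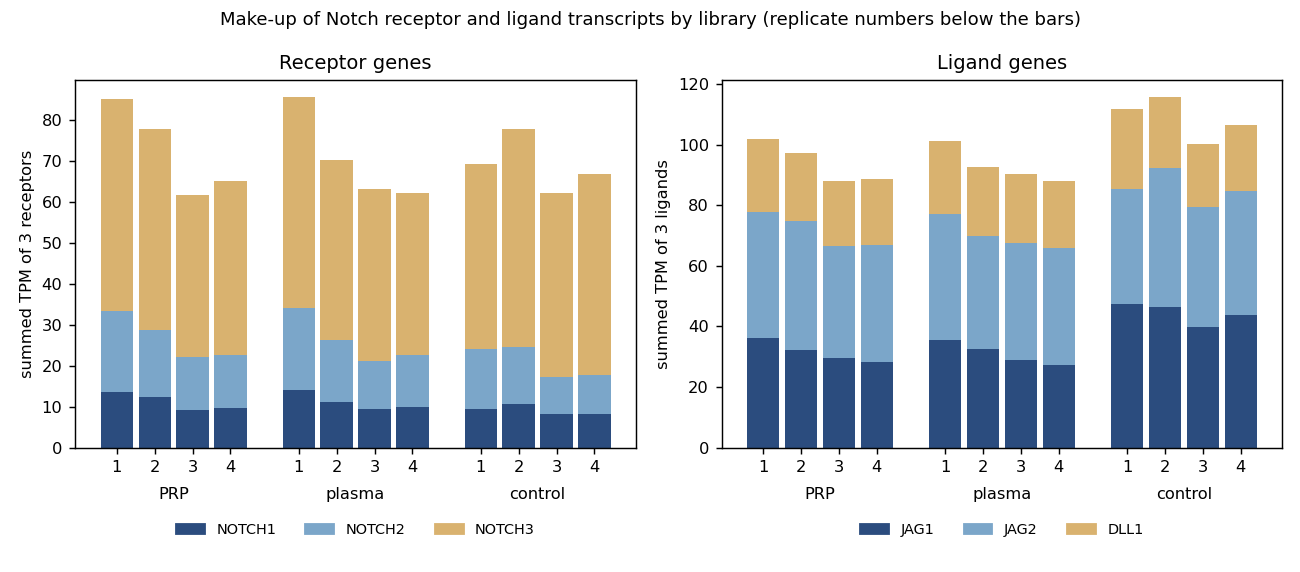
Summed TPM of the 3 receptor genes (left) and the 3 ligand genes (right) in each library, with each gene's part in the stacked bar (y axis, linear from 0) and libraries by group and replicate number (x axis). The JAG1 part is smaller in every PRP and plasma library than in any control library, while NOTCH3 makes up most of the receptor sum throughout.

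The target genes moved in different directions. HES1 rose after both treatments, NRARP rose in PRP, HEY1 fell, and HES4 did not pass the test. HES1 (chr3:194136145-194138732, plus strand) encodes a transcriptional repressor that also represses its own gene. It had 64.8, 65.8, 62.8 and 61.6 TPM in PRP, 58.8, 59.9, 61.6 and 58.7 TPM in plasma and 54.2, 55.3, 50.8 and 53.3 TPM in control. All treated libraries were above all control libraries, and the lowest PRP library, at 61.58 TPM, was just above the highest plasma library, at 61.57 TPM. The mean was 63.7 ± 1.90 TPM in PRP, 59.7 ± 1.32 TPM in plasma and 53.4 ± 1.90 TPM in control (SD, n = 4 each). The log2 difference from control was 0.25 in PRP (SE 0.04, adjusted p = 9.56e-05) and 0.16 in plasma (SE 0.04, adjusted p = 0.00357). In size, whatever the direction, 60.4% of tested genes changed by less in PRP and 44.7% in plasma. On the share of estimated reads the log2 difference was 0.29 in PRP and 0.20 in plasma.

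HEY1, on chromosome 8, encodes a repressor related to the HES proteins and was the least abundant of the 10 genes, with 261 to 426 estimated reads per library. It had 5.76, 5.52, 6.25 and 6.20 TPM in PRP, 5.20, 5.98, 4.99 and 5.24 TPM in plasma and 6.34, 7.72, 7.11 and 7.88 TPM in control. Every treated library was below every control library, with a narrow gap between 6.25 TPM in the highest PRP library and 6.34 TPM in the lowest control library. By limma HEY1 fell by 0.25 on the log2 scale in PRP (SE 0.08, adjusted p = 0.0175) and by 0.38 in plasma (SE 0.08, adjusted p = 0.00151). In PRP the call was lost on estimated reads, at -0.18 with an adjusted p of 0.108, on centred TPM, at -0.19 with an adjusted p of 0.0816, and without any one of PRP replicate 2, control replicate 2 or control replicate 4, at -0.22, -0.22 and -0.21 with adjusted p of 0.0525, 0.0522 and 0.0547. In plasma it was kept under all 22 alternatives.

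NRARP (chr9:137300482-137302251, minus strand) encodes an ankyrin repeat protein that binds the Notch transcription complex and dampens its activity. It had 28.6, 30.4, 25.1 and 27.7 TPM in PRP, 24.1, 27.5, 23.8 and 25.2 TPM in plasma and 18.0, 25.1, 24.4 and 23.6 TPM in control. The lowest PRP library, 25.09 TPM, was just below the highest control library, 25.12 TPM, and control replicate 1 stood lowest of all 12. NRARP rose by 0.29 on the log2 scale in PRP (SE 0.09, adjusted p = 0.0158), while the difference of 0.15 in plasma did not pass the test (adjusted p = 0.205). Without control replicate 1 the difference was 0.19 in PRP (adjusted p = 0.0353) and 0.04 in plasma (adjusted p = 0.639). The call was lost without PRP replicate 2, at 0.25 with an adjusted p of 0.0508, and without the 3 libraries numbered 1, at 0.18 with an adjusted p of 0.0779.

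HES4 (chr1:998962-1000172, minus strand), a relative of HES1, averaged 20.7 ± 2.44 TPM in PRP, 20.04 ± 2.58 TPM in plasma and 22.8 ± 2.88 TPM in control (SD, n = 4 each). Its log2 difference was -0.13 in PRP (95% interval -0.35 to 0.09, adjusted p = 0.306) and -0.18 in plasma (95% interval -0.40 to 0.05, adjusted p = 0.177). Control replicate 2, at 27.0 TPM, was above all other libraries, and the rest of the groups overlapped. Without it the difference was -0.05 in PRP (adjusted p = 0.706) and -0.10 in plasma (adjusted p = 0.469). The 4 target genes summed to 118 ± 5.27 TPM in PRP, 110 ± 2.72 TPM in plasma and 106 ± 6.50 TPM in control, and HES1 made up 53.9% ± 1.72, 54.2% ± 1.05 and 50.4% ± 2.60 of the sum in these groups. In RNA from whole cultures, fewer cells that express a gene and less of its RNA per cell cannot be told apart.

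No Notch gene passed the test between PRP and plasma. Limma called 0 of 10 at an adjusted p of 0.05, and 8 of 12517 genes over the whole table, which is 0.0639%, with 999 genes at an unadjusted p under 0.05. HES1 was the 1 Notch gene whose PRP libraries did not overlap with the plasma libraries, against 5.22% of all tested genes. Its log2 difference of 0.09 (95% interval 0.01 to 0.17) had an unadjusted p of 0.0318 and an adjusted p of 0.564. The differences between PRP and plasma were positive for 9 of the 10 genes, and the other 1, DLL1, was at -0.02. Their median was 0.05, against -0.00395 over all tested genes. The signs of NOTCH1, NOTCH2, NOTCH3, JAG1, JAG2 and HES4 reversed when some single libraries were left out. The 95% intervals reached from -0.33 to 0.44 for NOTCH2, the widest, and from -0.17 to 0.21 for JAG1. For HEY1 the difference was 0.13 (95% interval -0.04 to 0.30) and for NRARP 0.15 (95% interval -0.05 to 0.34), both with an adjusted p of 0.739. Both intervals hold 0 as well as differences larger than these.

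Other genes of the pathway were read from 7 lists arranged by role, and between PRP and plasma 0 genes of any list were called by limma. Genes with a mean under 1 TPM in control, which passed the filter through the treated libraries, are left out of the counts and medians. For each list the share called against control can be set beside the 53.1% of all tested genes in PRP and 49.3% in plasma. Of the 6 other receptors and ligands, NOTCH4, DLL3, DLL4 and DLK1 averaged at most 0.188 TPM in any group and were not tested. DLK2, a membrane protein related to the Delta ligands, averaged 35.3 ± 3.14 TPM in PRP, 36.4 ± 3.14 TPM in plasma and 16.6 ± 1.09 TPM in control (SD, n = 4 each). It rose by 1.04 on the log2 scale in PRP (adjusted p = 1.01e-07) and by 1.08 in plasma (adjusted p = 9.61e-08), with no overlap between treated and control libraries. DNER was the other tested gene and was not called, at 2.75 TPM in PRP, 2.56 TPM in plasma and 2.32 TPM in control.

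Of 8 tested genes that put sugars on Notch receptors (9 listed), 1 rose and 3 fell in PRP, and 2 rose and 3 fell in plasma. The called share was 50% in PRP and 62.5% in plasma, against backgrounds of 53.1% and 49.3%. POFUT1, which attaches the fucose that receptors need for ligand binding, averaged 30.7 ± 1.39 TPM in PRP, 27.3 ± 0.672 TPM in plasma and 16.2 ± 1.23 TPM in control. Its log2 difference was 0.88 in PRP (adjusted p = 3.98e-08) and 0.72 in plasma (adjusted p = 3.03e-07). The Fringe enzymes, which lengthen that fucose and tune the response to ligands, did not move together. RFNG was lower, at 26.5 TPM in PRP, 30.1 TPM in plasma and 35.1 TPM in control, and MFNG was lower at 3.59, 4.15 and 6.13 TPM. The effective length of MFNG differed from control by 0.29 on the log2 scale in PRP, and its share of reads fell by 0.45. LFNG was not called, with 38.6 TPM in PRP, 40.2 TPM in plasma and 40.0 TPM in control. POGLUT1, which adds glucose, fell by 0.35 on the log2 scale in PRP and by 0.24 in plasma. XXYLT1, which extends that glucose, rose by 0.20 in plasma, and its difference of 0.12 in PRP was not called.

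Of the 9 genes of receptor cleavage, 2 rose and 1 fell in PRP, and 3 rose and 1 fell in plasma. These shares, 33.3% in PRP and 44.4% in plasma, were under the backgrounds of 53.1% and 49.3%. ADAM10, the protease of the first cut after ligand binding, averaged 522 ± 14.3 TPM in PRP, 519 ± 18.3 TPM in plasma and 435 ± 11.3 TPM in control. It rose by 0.26 on the log2 scale in PRP (adjusted p = 2.17e-05) and by 0.25 in plasma (adjusted p = 3.43e-05). APH1A, a subunit of gamma-secretase, rose by 0.11 in both. APH1B, its relative, rose in plasma by 0.43, where its effective length differed from control by -0.34 and its share of reads by 0.17.

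Of 14 counted genes of the nuclear complex and its co-repressors (15 listed), 2 rose in PRP and 1 in plasma, and the rest did not pass the test. That is 14.3% in PRP and 7.14% in plasma, under the backgrounds of 53.1% and 49.3%. CTBP1, a co-repressor, averaged 76.1 ± 2.11 TPM in PRP, 75.4 ± 3.50 TPM in plasma and 65.4 ± 2.19 TPM in control. MAML3, a Mastermind-like co-activator, is left out of the count and is given by its levels alone, 1.21 TPM in PRP, 1.10 TPM in plasma and 0.722 TPM in control. HDAC1, a histone deacetylase, rose by 0.08 in PRP and was not called in plasma.

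Of 15 counted ubiquitin ligases and endocytic regulators (18 listed), 4 rose and 3 fell in PRP, and 5 rose and 3 fell in plasma. The called share, 46.7% in PRP and 53.3% in plasma, lay near the backgrounds of 53.1% and 49.3%. MIB1, the ligase that drives endocytosis of Notch ligands in the sending cell, averaged 15.3 ± 1.73 TPM in PRP, 15.6 ± 1.66 TPM in plasma and 24.2 ± 2.73 TPM in control. It fell by 0.63 on the log2 scale in PRP (adjusted p = 8.74e-05) and by 0.61 in plasma (adjusted p = 0.000140). NUMBL, related to the Notch inhibitor NUMB, averaged 16.7 ± 1.48 TPM in PRP, 15.7 ± 0.676 TPM in plasma and 23.8 ± 1.66 TPM in control. NEURL1B and DTX4, also ubiquitin ligases of the pathway, were higher, with DTX4 at 10.5 TPM in PRP, 12.6 TPM in plasma and 8.22 TPM in control.

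Of 7 counted HES, HEY and TLE genes beyond the 10 members (12 listed), 2 rose and 1 fell after each treatment, which is 42.9% beside backgrounds of 53.1% in PRP and 49.3% in plasma. HES6, which in mouse cells counteracts HES1, averaged 14.2 ± 1.27 TPM in PRP, 12.5 ± 1.26 TPM in plasma and 28.4 ± 2.64 TPM in control. It fell by 0.95 on the log2 scale in PRP (adjusted p = 6.96e-07) and by 1.12 in plasma (adjusted p = 2.00e-07), a larger change than that of any of the 10 genes. HES2, another family member, averaged 18.3 ± 1.80 TPM in PRP, 16.5 ± 0.970 TPM in plasma and 9.07 ± 1.34 TPM in control. Its log2 difference was 0.95 in PRP (adjusted p = 1.83e-06) and 0.81 in plasma (adjusted p = 9.95e-06), with shifts in effective length of -0.29 in each and differences in the share of reads of 0.77 and 0.63. HEYL and HES5 are left out of the count, with HEYL at 1.34 TPM in PRP, 1.27 TPM in plasma and 0.813 TPM in control. TLE3, a Groucho-type co-repressor, rose by 0.20 in PRP and 0.24 in plasma. HES3 was listed at 0 in every library, and HES7 and HEY2 were too low to test.

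Of 7 tested genes linked to Notch in keratinocytes (10 listed), 3 rose and 1 fell after each treatment, which is 57.1% beside backgrounds of 53.1% in PRP and 49.3% in plasma. CDKN1A, the cell cycle inhibitor p21, which Notch1 induces in mouse keratinocytes, averaged 86.7 ± 2.75 TPM in PRP, 86.9 ± 5.10 TPM in plasma and 113 ± 6.02 TPM in control. It fell by 0.38 on the log2 scale in PRP (adjusted p = 1.69e-05) and by 0.38 in plasma (adjusted p = 2.14e-05). IVL, the cornified envelope protein involucrin, rose to 3.63 ± 0.335 TPM in PRP and 2.57 ± 0.350 TPM in plasma, against 1.54 ± 0.365 TPM in control. HOPX, a homeodomain protein, rose by 0.54 on the log2 scale in PRP and 0.49 in plasma. The differentiation genes KRT1 and CASP14 were too low to test, with at most 40 and 68 reads in any library. Their treated libraries lay below all control libraries. Among tested genes, 46.8% in PRP and 43.9% in plasma did not overlap with control, in either direction. KRT1 averaged 0.144 TPM in PRP, 0.248 TPM in plasma and 0.608 TPM in control. CASP14 averaged 0.143, 0.158 and 0.728 TPM in these groups. KRT10, of the same list, went the other way, at 31.1, 30.8 and 28.8 TPM.

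**Figure D5:**
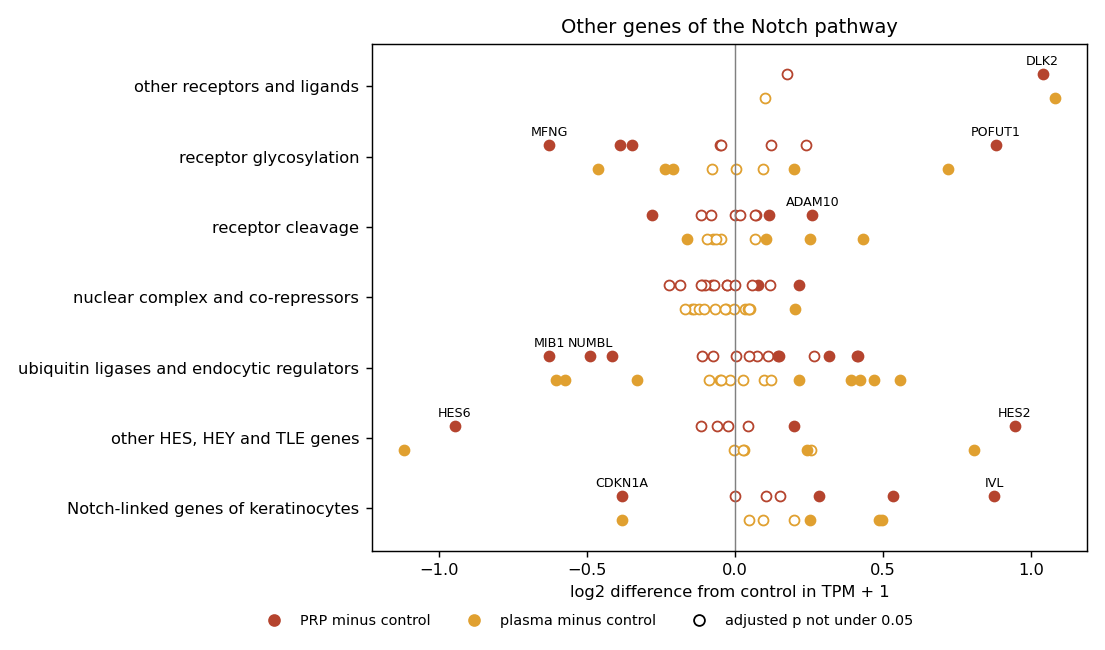
Log2 difference in TPM + 1 from control (x axis) for each counted gene of 7 lists of Notch pathway genes (y axis), without genes under 1 TPM in control, PRP above plasma in each list, with filled points past an adjusted p of 0.05. The widest differences include those of DLK2, POFUT1, HES2 and IVL on the higher side and HES6 on the lower side, at -0.95 in PRP and -1.12 in plasma.

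The median log2 difference over the counted genes of these lists lay between -0.05 and 0.61 in PRP and between -0.05 and 0.59 in plasma, beside -0.06 and -0.05 over all tested genes. The 0.61 and 0.59 belonged to the list of other receptors and ligands, which holds 2 tested genes.

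Genes whose level followed that of a Notch gene were read from Pearson's r of log2(TPM + 1) over the 12 libraries, as a description of libraries that share their groups and sequencing. JAG1 was most like MAP1B (r = 0.988), AHCTF1 (r = 0.984) and TENM2 (r = 0.983), all lower after both treatments. MAP1B, a microtubule-associated protein, averaged 6.62 TPM in PRP, 6.14 TPM in plasma and 16.9 TPM in control. HES1 was most like GTPBP3 (r = 0.977), VPS4A (r = 0.968) and RIOX1 (r = 0.968). GTPBP3, an enzyme of mitochondrial tRNA modification, averaged 19.6 TPM in PRP, 16.5 TPM in plasma and 11.2 TPM in control. HEY1 was most like TIA1 (r = 0.954), GALNT3 (r = 0.941) and PTHLH (r = 0.939), and NRARP was most like RNF126 (r = 0.957). PTHLH, which encodes parathyroid hormone-related protein, averaged 47.6 TPM in PRP, 45.2 TPM in plasma and 65.2 TPM in control. Among the receptors, NOTCH1 was most like DLG5 (r = 0.971), NOTCH2 like LAMC1 (r = 0.974) and NOTCH3 like CTNNA1 (r = 0.961). DLL1 was most like SLC12A2 (r = 0.928), HES4 like C2orf15 (r = 0.924) and JAG2 like TMEM260 (r = 0.854), the lowest of these values.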

How the data were processed

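RNA was measured in 12 libraries of PE/CA-PJ41 cells, 4 per group, from polyadenylated RNA, per the labels' protocols. The submitters' processing notes name Salmon and hg38 but no version, with the transcript set and strand setting not given in the sources used here. Per the file headers, the deposited files give TPM, estimated counts of reads, and effective length for 20375 genes, 1 library per file, with decimal commas. TPM recomputed from the deposited reads and lengths matched for 20375 genes in every library, within 1% plus 0.01 TPM.

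Differences in log2(TPM + 1) were tested with the trend method of limma 3.58.1 in R 4.3.3. A gene entered when 4 or more libraries reached 1 TPM, which left 12517 genes. All 12 libraries were fitted by group, leaving 9 residual degrees of freedom, and two-sided p-values were adjusted over all tested genes (Benjamini-Hochberg, 0.05). Log2 differences on this scale understate changes of low genes, and TPM is relative to the other genes of a library. Estimated reads went through voom in limma as an alternative. In all, 22 alternatives were planned and 0 were added. The fit was tested on simulated data in which few genes changed, as many up as down, with no library pattern by length. That test does not cover the broad differences from control or the library pattern of long transcripts seen here.

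The 10 genes and all lists were chosen with earlier results of these data known. The named genes were the 10 members, every gene of 3 lists (other receptors and ligands, glycosylation, other HES, HEY and TLE genes), of each other list the 4 tested genes lowest in adjusted p, and the 3 genes most like each member. A few genes that this rule takes are not reported here. NOTCH2NLA to NOTCH2NLR and FAM120B were named for sharing sequence or position with a member. Single cell type markers, KRT1, KRT10 and CASP14 were named after their values were seen. Gene positions come from GENCODE v29 and promoters from RefSeq (GRCh38.p14). No pair of replicates agreed within sampling noise. Sequences and lists were read with Python 3.11.15 (pandas 2.3.3).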

Additional observations from a re-analysis of the deposited data

Results flagged for a closer look

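The total of estimated reads of 1 PRP and 1 plasma library stood below the other 3 libraries of its group. PRP replicate 1 had 36943548 estimated reads, while the other PRP libraries had between 41872643 and 41976136. Plasma replicate 2 had 36258955 estimated reads, while the other plasma libraries had between 41752302 and 41946780. These gaps were found by Dixon's test among 33 groups of 4 values, the read totals and the TPM of the 10 genes in each group, and chance gives about 1 such gap in 20 groups. No level of a Notch gene met this criterion. JAG1 and HES1 kept their calls against control without PRP replicate 1 and without plasma replicate 2.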

How the results depend on the processing

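JAG1 and HES1 passed the test in both comparisons with control under all 22 alternatives, and HEY1 did so in plasma. JAG1 ranged from -0.55 to -0.40 in PRP and from -0.57 to -0.44 in plasma, and HES1 from 0.23 to 0.32 in PRP and from 0.14 to 0.23 in plasma. Against control in plasma, 5 Notch genes were called in place of 3 on reads scaled by median ratios, on reads scaled by totals and with a replicate block, and leaving out 1 library gave 3 each time. In PRP, leaving out 1 library gave 2 to 5 in place of 4, with 2 without PRP replicate 2, and the replicate block gave 6. Between PRP and plasma 8 genes were called over the whole table, against 4 with no filter, 13 on reads scaled by totals, 16 with only the 8 libraries compared and 1 without the 3 libraries numbered 1. Leaving out 1 library gave 4 to 14. In this comparison limma called 0 Notch genes in every alternative.

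Replicate numbers were not taken as pairs, since 5 of 12 same-numbered pairs correlated over 0.1 (from -0.07 to 0.30). The only negative value was that of control and plasma replicate 2. Only 4 of 12 libraries correlated best with their own number in both other groups at once. With the replicate block NOTCH1 passed at adjusted p = 0.0147 in PRP and 0.0169 in plasma, and NOTCH2 at 0.000305 and 0.00104.

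Signs reversed for differences near 0. DLL1 in plasma became 0.0525 on reads scaled by median ratios, 0.0238 by totals, 0.0379 on length-corrected reads, 0.0445 with median centring and 0.0310 without the libraries numbered 1. In PRP it became 0.0343, 0.0183 and 0.0302 on median-ratio reads, length-corrected reads and median centring, and JAG2 became 0.0324, 0.0153 and 0.0258. The cause was not tested. Leaving out 1 library each, DLL1 ran from -0.0812 to 0.0303 in PRP and -0.0592 to 0.0523 in plasma, and JAG2 from -0.0708 to 0.0147 in PRP. Between PRP and plasma the ranges were -0.0900 to 0.114 for NOTCH1, -0.0597 to 0.198 for NOTCH2, -0.0128 to 0.121 for NOTCH3, -0.0459 to 0.0841 for JAG1, -0.00292 to 0.0637 for JAG2 and -0.0162 to 0.104 for HES4. For HEY1, with 261 to 426 reads per library, and HES4, with 281 to 464, counting error is largest among the 10 genes.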
